A study of Mus musculus with 6 samples.

Results

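The genes of MHC class I antigen presentation were followed in hearts of mice that lack cyclophilin D and in wild-type (WT) hearts. The set held 10 genes: the light chain B2m, the heavy chains H2-K1 and H2-D1, the peptide transporter genes Tap1 and Tap2 with the loading factor Tapbp, the immunoproteasome subunits Psmb8, Psmb9 and Psmb10, and the transactivator Nlrc5. A probe set, the summary of the array probes assigned to 1 transcript or part of it, was taken where its only annotated gene symbol was a listed gene. This gave 26 probe sets, of the 23410 that carry a symbol. They stood for 8 of the 10 genes, of 19938 genes read in the same way, with 19 probe sets for Nlrc5 and 1 for each of the other 7. H2-K1 and H2-D1 have near-identical paralogs, and the probe sets that name them also name other genes, so neither heavy chain could be read on its own.

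Each of 6 hearts was hybridised to its own Affymetrix Gene 1.0 ST array. The 3 Ppif-/- hearts came from mice with a global knockout of Ppif, the gene for cyclophilin D, moved onto C57BL/6 by backcrossing from Sv129. The 3 WT hearts came from mice labelled C57BL/6, and all mice were 8 weeks old. The labels number the hearts without saying whether mice were littermates, so p-values measure the spread between these hearts. Values are log2 expression throughout, errors on group means are SD with n = 3, and errors on differences (Ppif-/- minus WT) are SE of the limma fit. In whole hearts, more cells of a type and more RNA per cell cannot be told apart.

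MHC class I molecules display peptides from inside the cell to CD8 T cells. The proteasome cuts proteins into peptides, and cells exposed to interferon swap its catalytic subunits for those of the immunoproteasome. The TAP transporter carries the peptides into the endoplasmic reticulum, where tapasin (Tapbp) helps load them onto a heavy chain paired with the B2m light chain. NLRC5 is the transcriptional activator that drives many of these genes together, and it is itself induced by interferon. Heart muscle cells are known for low basal class I, with endothelial and immune cells of the heart carrying more.

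The upstream sequences of the class I chain genes and of the Tap1 and Psmb9 pair are shown because NLRC5, interferon and NF-kappa B are known to act through such short promoter elements. They are from RefSeq on GRCm38.p6, read 5′ to 3′ on the strand of the gene and ending at or before its start, with motif matches in capitals. Promoter windows were given for 8 of the 10 genes.
B2m (chr2:122147542-122147686, plus strand): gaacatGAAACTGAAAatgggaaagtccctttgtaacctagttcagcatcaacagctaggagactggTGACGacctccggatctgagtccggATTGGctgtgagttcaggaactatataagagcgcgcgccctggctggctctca
H2-D1 (chr17:35262917-35263093, plus strand): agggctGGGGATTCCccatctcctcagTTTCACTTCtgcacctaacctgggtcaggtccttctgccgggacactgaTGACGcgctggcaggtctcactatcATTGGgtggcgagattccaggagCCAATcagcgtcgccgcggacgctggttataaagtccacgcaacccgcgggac
H2-K1 (chr17:34000429-34000458, minus strand): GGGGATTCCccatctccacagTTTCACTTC
Tap1 and Psmb9, the whole stretch between their starts (chr17:34187331-34187555, strand of Tap1): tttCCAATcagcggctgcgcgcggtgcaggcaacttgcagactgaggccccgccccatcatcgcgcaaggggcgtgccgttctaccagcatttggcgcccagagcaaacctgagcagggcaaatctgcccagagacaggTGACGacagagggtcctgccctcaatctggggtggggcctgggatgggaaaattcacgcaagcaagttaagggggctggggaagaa

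The letters searched, on both strands of windows of 300 bases, were 2 spacings of the interferon-stimulated response element (GAAA, 2 free bases, GAAA, and the shorter GAANNGAAA), the GAS element TTCNNNGAA, the kappa B type GGGNNTTCC, the CCAAT box and the CRE core TGACG. No matches overlapped in the stretches printed. B2m held the longer form 139 bases before its start, and H2-K1 and H2-D1 held GAANNGAAA on the reverse strand. The longer and the shorter form occurred in 3.44% and 7.52% of all 32851 promoter windows. Both heavy chains also held the kappa B type, found in 5.82% of windows, and over the 100 bases that begin there their sequences were identical at 89. CCAAT stood in 6 of the 8 genes (37.4% of all windows) and TGACG in 5 of the 8 (20.8%). Psmb8 held the GAS letters 97 bases before its start (8.3% of windows). Tap1 and Psmb9 are read in opposite directions from the 225 bases between them, so their CCAAT and TGACG matches are the same bases. A match is a description of letters and not of binding.

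Ppif, the deleted gene, stood at 6.00, 6.25 and 6.44 in the Ppif-/- hearts and at 11.28 to 11.49 in WT hearts, in the direction of the labels. Array medians ranged from 6.03 to 6.11. Markers of heart muscle averaged 13.48 to 13.53 in all 6 hearts. Over all 23410 probe sets, 254 passed a Benjamini-Hochberg adjusted limma p of 0.05 (1.09%), 146 higher (0.624%) and 108 lower in Ppif-/- hearts, and the median difference was -0.0023.

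Of the 26 class I probe sets, 1 rose, an Nlrc5 probe set, and 0 fell in limma, with 11 higher and 0 lower at an unadjusted p under 0.05. Over all probe sets these unadjusted shares were 6.1% higher and 6.81% lower. Differences lay above 0 for 23 of the 26 (49.2% of all probe sets), with a median of 0.15. In 11 of them every Ppif-/- heart lay above every WT heart and in 0 every one lay below. Among all probe sets the genotypes were apart in 19.8%, with 9.21% higher and 10.6% lower in Ppif-/- hearts. Because 19 of the 26 read the same gene, these are not independent counts. Among the other 7 genes, 6 differences lay above 0 and the groups were apart for 2, B2m and Tapbp.

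**Figure D1:**
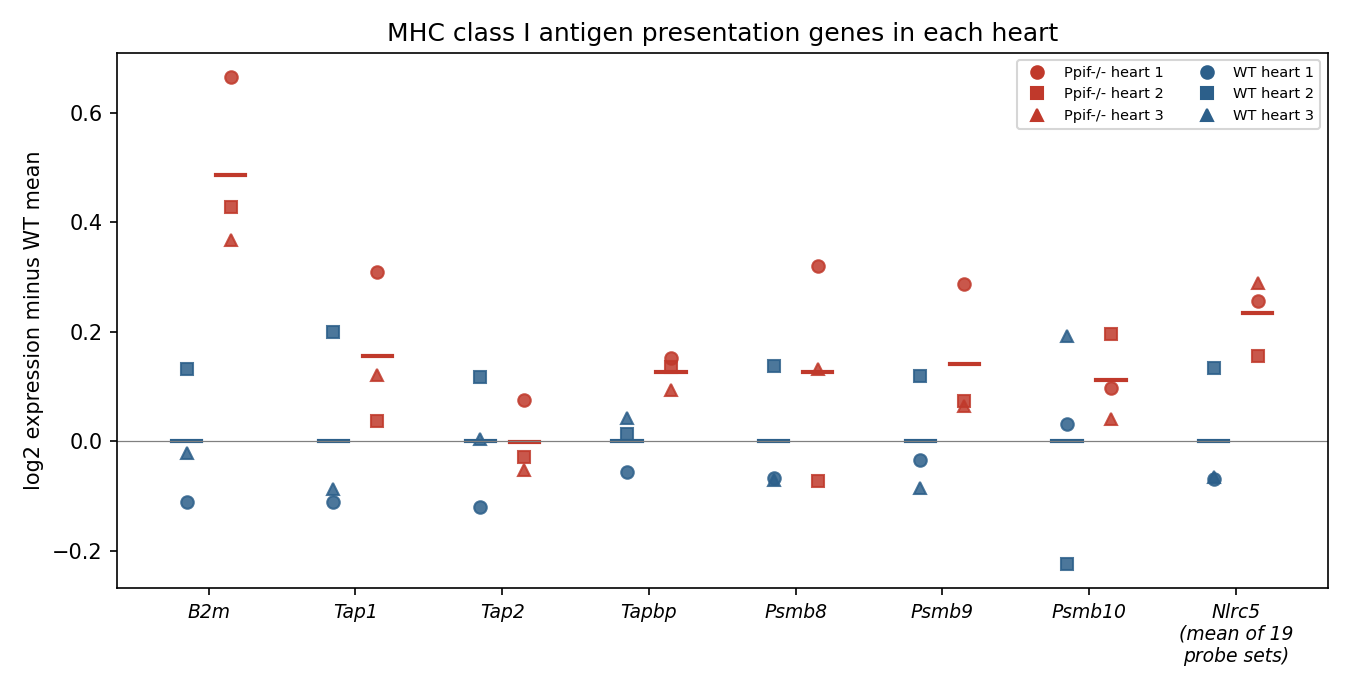
Log2 expression of the 8 class I genes in each heart, less the gene's WT mean (y axis), with Ppif-/- hearts in red, WT hearts in blue and bars for group means; Nlrc5 is the mean over its 19 probe sets. B2m shows the widest gap between genotypes among the 8, and WT heart 2 lies above the other WT hearts for B2m, Tap1, Tap2, Psmb8, Psmb9 and Nlrc5.

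B2m encodes the light chain that every class I heavy chain needs to reach the cell surface. It stood at 11.72, 11.49 and 11.43 in Ppif-/- hearts 1, 2 and 3 and at 10.95, 11.19 and 11.04 in WT hearts 1, 2 and 3. Each Ppif-/- heart lay above each WT heart, with heart 1 the highest. The group means were 11.55 ± 0.16 and 11.06 ± 0.12. The difference of 0.49 ± 0.10, a 1.40-fold higher level, did not pass over all probe sets (limma adjusted p = 0.0814). It did pass on probe sets with a mean of 6 or more (0.0488), with array weights (0.0358) and when a variance trend was fitted (0.0275), and over all alternatives its adjusted p ranged from 0.0275 to 0.23.

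For the heavy chains, 2 probe sets are annotated to several class I genes at once, among them both listed ones, and their signal cannot be assigned to either. The first gave 11.02, 10.74 and 10.73 in Ppif-/- hearts and 10.07, 10.47 and 10.05 in WT hearts, a difference of 0.64 ± 0.13 (limma adjusted p = 0.08). It passed without WT heart 2 (0.0358), with array weights (0.0268) and when a variance trend was fitted (0.0325). The other gave 10.64, 10.34 and 10.34 against 9.99, 10.32 and 10.13, a difference of 0.30 ± 0.12 (adjusted p = 0.331). In both, the genotypes did not overlap and WT heart 2 was the highest WT heart, closest to the Ppif-/- hearts. Of all 4 probe sets that name any of the 10 listed genes among several, 0 passed. These 2 lay above 0 and the other 2 below, the lowest at -0.06.

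None of the transport and loading genes passed. Tap1, a subunit of the peptide transporter, stood at 7.42, 7.15 and 7.23 in Ppif-/- hearts and at 6.998, 7.31 and 7.02 in WT hearts. WT heart 2 lay within the Ppif-/- range, and the difference of 0.16 ± 0.11 did not pass (limma adjusted p = 0.61). Its partner Tap2 gave 8.25, 8.15 and 8.12 against 8.05, 8.29 and 8.18. The groups overlapped fully, with a difference of -0.0020 ± 0.08 whose sign turned under quantile normalisation. Tapbp, which bridges the transporter and the heavy chain, gave 9.97, 9.95 and 9.91 against 9.76, 9.83 and 9.86. These groups did not overlap, but the step of 0.13 ± 0.06 was small and did not pass (limma adjusted p = 0.463).

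The 3 immunoproteasome subunits did not pass either. Psmb8 (LMP7) stood at 7.65, 7.26 and 7.46 in Ppif-/- hearts and at 7.26, 7.47 and 7.26 in WT hearts, a difference of 0.13 ± 0.11. Psmb9 (LMP2) stood at 8.22, 8.01 and 8.00 against 7.90, 8.05 and 7.85, a difference of 0.14 ± 0.09. Psmb10 (MECL-1) stood at 8.71, 8.81 and 8.65 against 8.64, 8.39 and 8.81, a difference of 0.11 ± 0.11. The genotypes overlapped for all 3, and the limma adjusted p was 0.703, 0.569 and 0.741. Ppif-/- heart 1 was the highest heart for Psmb8 and Psmb9, and Ppif-/- heart 2 and WT heart 3 were the highest for Psmb10.

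Each immunoproteasome subunit takes the place of a constitutive one, which allows a comparison within each heart. The constitutive partners stood at 9.22 and 9.14 (Psmb5), 10.54 and 10.53 (Psmb6) and 11.08 and 11.09 (Psmb7) in Ppif-/- and WT hearts, and none of these 3 passed. The log2 difference of subunit minus partner has no meaning as a level, since 2 probe sets are involved, but its shift between genotypes shows unequal change. Psmb8 minus Psmb5 shifted by 0.05, from -1.81 ± 0.03 in WT to -1.76 ± 0.29 in Ppif-/- hearts. Psmb9 minus Psmb6 shifted by 0.14, from -2.60 ± 0.09 to -2.46 ± 0.06, and Psmb10 minus Psmb7 by 0.12, from -2.48 ± 0.19 to -2.35 ± 0.09. In an exact 2-sided permutation test, which cannot go below 0.1 for 3 against 3 hearts, p was 0.9, 0.2 and 0.5, or 0.9, 0.6 and 0.75 after adjustment over the 3 pairs. The spread of Psmb8 minus Psmb5 among Ppif-/- hearts, from -2.02 to -1.45, was wider than its whole WT range, and without Ppif-/- heart 1 the shift was -0.10.

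**Figure D2:**
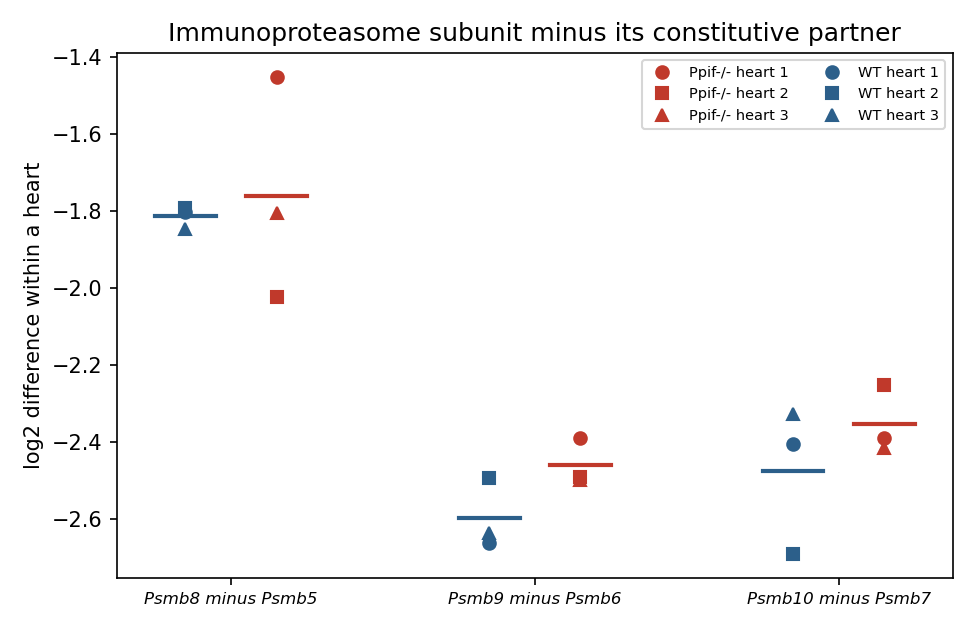
Log2 value of each immunoproteasome subunit minus that of its constitutive partner in the same heart (y axis), for Ppif-/- hearts in red and WT hearts in blue, with bars for group means. The groups overlap for Psmb8 minus Psmb5 and Psmb10 minus Psmb7, and for Psmb9 minus Psmb6 WT heart 2 (-2.49) lies among the Ppif-/- hearts.

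Nlrc5 was read by 19 probe sets, and which part of the transcript each reads was not given. The probe set that rose (10574149) stood at 6.64, 6.61 and 6.81 in Ppif-/- hearts and at 6.08, 6.03 and 5.81 in WT hearts. Here the genotypes were well apart, by more than the spread within either, though the WT values lay near or below the array medians (6.03 to 6.11). The means were 6.69 ± 0.11 and 5.97 ± 0.14, a difference of 0.72 ± 0.10 or 1.64-fold (limma adjusted p = 0.0148). The call was lost without Ppif-/- heart 3 (adjusted p = 0.0667), when all probe sets of the array were tested (0.0665) and with the replicate number as a block (0.0669), and its adjusted p ranged from 0.0062 to 0.0669 over the alternatives.

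The other 18 Nlrc5 probe sets did not pass. The next by p-value was 10574151, at 6.58, 6.41 and 6.37 in Ppif-/- hearts against 6.09, 6.16 and 6.12 in WT hearts (0.33 ± 0.08, limma adjusted p = 0.113). It was followed by 10574098, at 6.69, 6.45 and 6.39 against 6.06, 6.22 and 6.14 (0.37 ± 0.10, adjusted p = 0.146). In both, the lowest Ppif-/- heart lay above the highest WT heart. Probe sets 10574104, 10574139, 10574157, 10574155, 10574135, 10574137 and 10574153 differed by 0.46, 0.40, 0.32, 0.31, 0.30, 0.29 and 0.19, each with an unadjusted limma p between 0.0172 and 0.0475. Smaller differences were measured for 10574102 (0.23), 10574100 (0.14), 10574159 (0.13), 10574161 (0.13), 10574141 (0.12), 10574163 (0.07) and 10574145 (0.07). Of all Nlrc5 probe sets, 10574100 had the highest level, 8.79 in Ppif-/- and 8.65 in WT hearts. The 2 below 0 were 10574143 (-0.13 ± 0.11) and 10574133 (-0.0038 ± 0.12). In all, 17 of the 19 lay above 0 (49.2% of all probe sets), and the median was 0.23. The genotypes were apart with Ppif-/- higher in 9 (9.21% of all probe sets). The 19 probe sets share the RNA of 1 gene and the same 6 hearts, so their count adds no replicates.

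**Figure D3:**
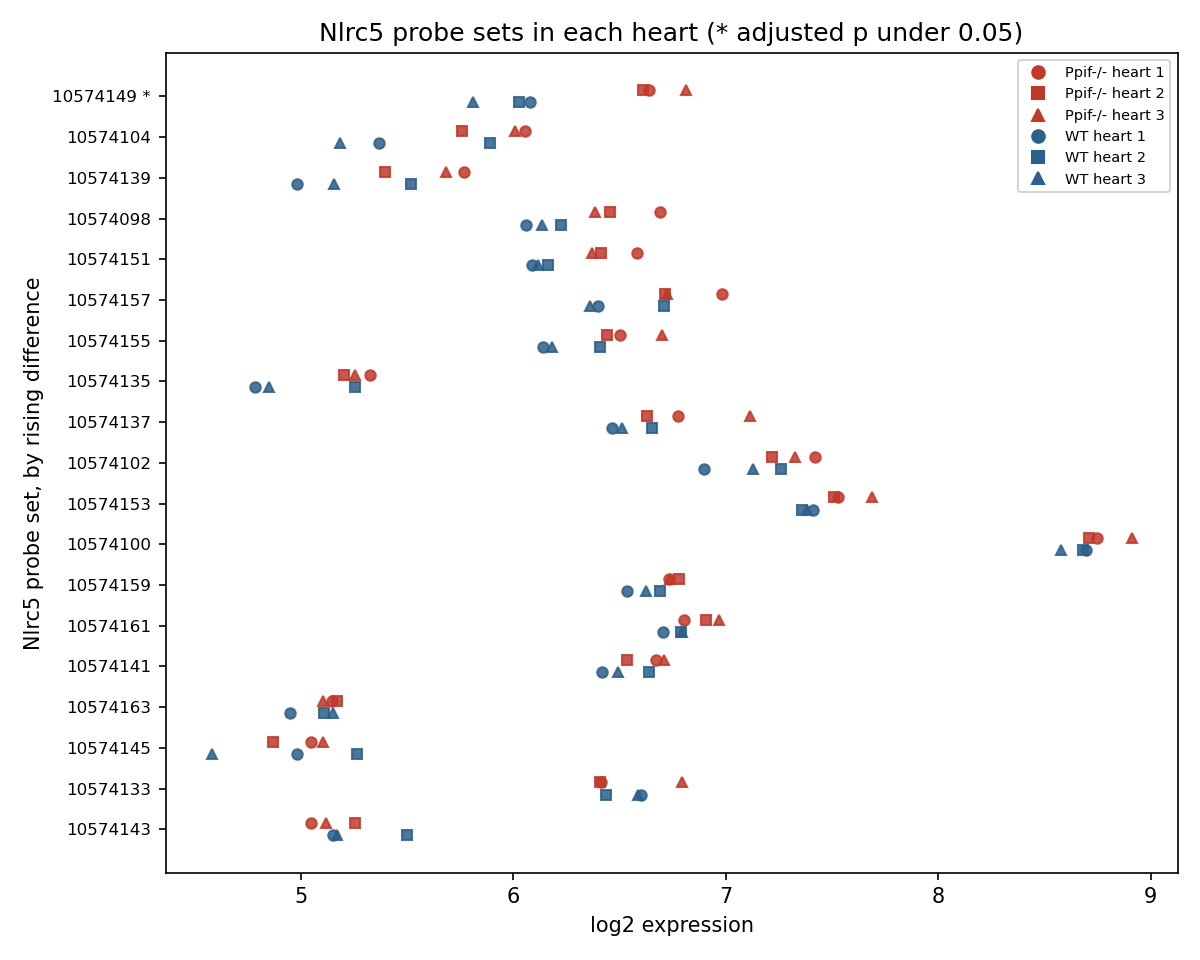
Log2 expression (x axis) of each of the 19 Nlrc5 probe sets in the 6 hearts, ordered by their difference, with Ppif-/- hearts in red and WT hearts in blue. In the uppermost probe set, 10574149, the Ppif-/- hearts sit between 6.61 and 6.81 and the WT hearts between 5.81 and 6.08, while in the 3 lowest the genotypes overlap.

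Hearts of the same genotype also differed from one another in these genes. Relative to each gene's WT mean and averaged over the 8 genes, Ppif-/- hearts 1, 2 and 3 stood at 0.27, 0.12 and 0.13, and WT hearts 1, 2 and 3 at -0.07, 0.08 and -0.01. WT heart 2 was therefore nearer to Ppif-/- hearts 2 and 3 than to WT heart 1, and it lay above the WT mean for 7 of the 8 genes, all but Psmb10. For Tap1, Tap2 and Tapbp together WT heart 2 (0.11) exceeded Ppif-/- hearts 2 and 3 (0.05 each). For Psmb8, Psmb9 and Psmb10 together it did not: WT heart 2 stood at 0.011, below Ppif-/- hearts 1, 2 and 3 (0.23, 0.07 and 0.08) and just below WT heart 3 (0.012). Over the Nlrc5 probe sets WT heart 2 stood at 0.13, just under the 0.16 of Ppif-/- heart 2, and was above the WT mean in 17 of 19. These means describe the hearts and were not tested.

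Other class I heavy chain genes, most of them nonclassical, gave differences of a similar median. Of 14 measured, 1 rose and 0 fell, beside 0.624% and 0.461% of all probe sets. Differences lay above 0 for 11 (49.2% of all probe sets), and the median was 0.15, beside -0.0023 over all probe sets. H2-T24 stood at 8.73, 8.52 and 8.49 in Ppif-/- hearts and at 7.68, 7.88 and 7.86 in WT hearts, 1.71-fold higher (0.77 ± 0.09, limma adjusted p = 0.00888), with no overlap. Its call was lost only with the replicate number as a block (adjusted p = 0.051). H2-Q5 gave 8.34, 7.82 and 7.84 against 6.94, 7.30 and 7.37 (0.80 ± 0.17, adjusted p = 0.0827) and was named after its value was seen. The H2-Q and H2-T genes among the 14 are close paralogs of one another, and for these the array may read more than the named one. MHC class II presentation, the route for peptides taken up from outside, gave 0 calls among 11 genes in limma, with 0 at an unadjusted p under 0.05 and a median of 0.04. The nearest to a call there were H2-Oa (0.10 ± 0.07) and the lysosomal protease Ctss (0.14 ± 0.10).

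The general machinery that class I shares with other pathways gave no calls. A list of 8 genes held constitutive catalytic subunits, proteasome activators and the proteasome assembly factor Pomp. Of these, 0 passed in limma and 1 was lower at an unadjusted p under 0.05. That was the activator Psme4, at 11.54, 11.44 and 11.52 in Ppif-/- hearts and 11.81, 12.03 and 11.78 in WT hearts (-0.37 ± 0.09, adjusted p = 0.111). It passed with a variance trend (0.0297). Psme1, a subunit of the PA28 activator that is induced by interferon, stood at 0.12 ± 0.07. Among 10 genes of peptide trimming and loading, 0 passed and 0 had an unadjusted p under 0.05, with a median of -0.06. The peptidase Thop1 (-0.19 ± 0.09) and the chaperone calnexin (Canx, -0.11 ± 0.07) had the smallest p-values.

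Upstream regulators did not pass. Of 15 measured transcriptional regulators of class I genes, 0 passed in limma, and an unadjusted p under 0.05 was reached by 2, both higher, with a median of -0.0090. Nfyc, a subunit of the factor that binds the CCAAT box, differed by 0.25 ± 0.07 (adjusted p = 0.186) and the histone methyltransferase Ezh2 by 0.31 ± 0.13 (adjusted p = 0.369). Of 17 interferons, receptors and JAK-STAT genes, 0 passed and the median was -0.05, with 1 higher and 2 lower at an unadjusted p under 0.05. Irf9, the DNA-binding subunit of the type I interferon response complex, stood at 8.21, 7.80 and 7.75 in Ppif-/- hearts and at 7.49, 7.52 and 7.28 in WT hearts (0.49 ± 0.13, adjusted p = 0.156). The groups did not overlap, and Ppif-/- heart 1 was the highest, as for B2m. The kinase Jak2 differed by -0.31 ± 0.12.

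Genes induced by interferon were compared as the wider group to which the class I genes belong. Of 28 genes induced mainly by type I interferon, 1 rose and 0 fell, beside 0.624% and 0.461% of all probe sets. Differences lay above 0 for 24 (49.2% of all probe sets) and the genotypes were apart with Ppif-/- higher for 12 (9.21%), with a median of 0.13. The gene that rose was Ifit2, which binds viral RNA, and its hearts stood at 8.04, 7.84 and 7.60 against 6.90, 7.22 and 7.08. Of 16 GTPases and chemokines induced by interferon gamma, 0 rose and 1 fell, with a median of 0.16. The gene that fell, Gbp2b, gave 4.76, 5.10 and 4.99 in Ppif-/- hearts and 7.61, 7.56 and 7.26 in WT hearts, in the other direction from most of its list. The call of Ifit2 ended when any heart other than Ppif-/- heart 3 was left out (0.0668 to 0.137 in limma), and the lists were chosen with earlier results of these data known.

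**Figure D4:**
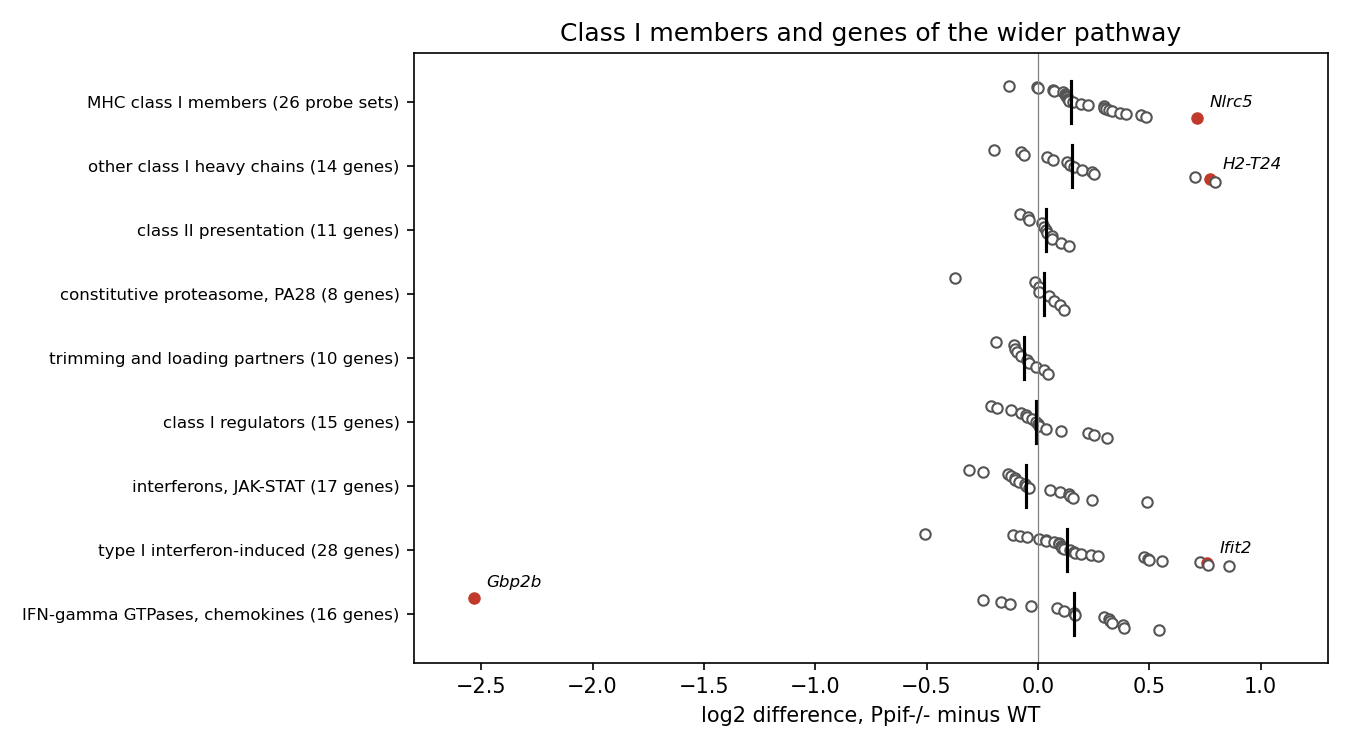
Log2 difference between genotypes (x axis) for the 26 class I probe sets and for each gene of 8 related lists, with filled red points for an adjusted p under 0.05 and black bars for list medians. The class I members, the other heavy chains and both interferon-induced lists have medians of 0.13 to 0.16, and the remaining lists lie between -0.06 and 0.04.

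Since immune and endothelial cells carry much class I, their markers were set beside these values. Over the 53 measured markers of leukocytes, 1 rose and 0 fell, beside 0.624% and 0.461% of all probe sets. At an unadjusted limma p under 0.05, 4 were higher (6.1% of all probe sets) and 10 lower (6.81%). The genotypes were apart with Ppif-/- higher for 5 (9.21% of all probe sets) and lower for 10 (10.6%). Of the 53, 23 lay above 0 and 30 below, and the mean level was 5.79 to 5.85 in Ppif-/- and 5.81 to 5.89 in WT hearts. The marker that rose was the macrophage lysosomal protein Cd68, at 8.12, 7.86 and 8.01 against 7.46, 7.53 and 7.31 (0.56 ± 0.09, limma adjusted p = 0.0394), a call lost without any 1 heart (0.0551 to 0.145). Other genes of the macrophage and monocyte list, named after their values were seen, lay on both sides of 0. Mrc1 lay above 0, as did Cd68 (0.27 ± 0.08 for Mrc1, limma adjusted p = 0.216), without overlap. Ccr2 and Cd14 lay below 0. The monocyte chemokine receptor Ccr2 stood at 5.07, 4.64 and 5.12 against 5.73, 5.64 and 5.54 (-0.70 ± 0.13, limma adjusted p = 0.0587), and Cd14, a lipopolysaccharide co-receptor, at 5.22, 5.44 and 5.55 against 6.02, 6.58 and 5.60 (-0.66 ± 0.22, adjusted p = 0.259), both without overlap. The list as a whole averaged 7.66 to 7.83 in Ppif-/- and 7.68 to 7.80 in WT hearts, with 7 of 11 above 0 and 4 below. Of the pan-leukocyte list, 3 of 7 lay above 0, with Itgb2 at 0.17 ± 0.07 and Laptm5 at 0.15 ± 0.08. T cell markers averaged 5.18 to 5.24 against 5.19 to 5.25, with Cd8a at -0.16 ± 0.07 and Cd247 at 0.17 ± 0.10.

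NK cell, B cell and dendritic cell markers gave 0 calls in limma, with list medians of 0.07, -0.08 and -0.02. The 2 with the smallest p in each were Gzma (0.21) and Klrk1 (-0.19), Cd79a (-0.29) and Ms4a1 (-0.29), and Zbtb46 (-0.19) and Siglech (0.22). All 6 neutrophil markers lay below 0, with a median of -0.28 and 0 calls, led by Retnlg (-0.31) and S100a9 (-0.40). Endothelial markers averaged 9.92 to 10.08 in Ppif-/- and 9.999 to 10.05 in WT hearts, with Eng at -0.18 ± 0.07 and Tek at -0.18 ± 0.09. Of the 10 endothelial markers, 5 lay above 0 and 5 below, with a median of -0.011 and 0 calls. Lower calls were made for the fibroblast receptor Pdgfra (-0.44 ± 0.06, adjusted p = 0.0246) and the smooth muscle gene Tagln (-0.51 ± 0.08, adjusted p = 0.0332), and both were lost without any 1 heart (0.0693 to 0.0991 and 0.0537 to 0.122). In the fibroblast list 2 of 8 lay above 0, the collagen genes Col1a2 (0.27 ± 0.13) and Col1a1 (0.21 ± 0.11), which did not pass and were named after their values were seen. The list median was -0.06, and the list averaged 9.47 to 9.65 in Ppif-/- and 9.52 to 9.64 in WT hearts. The smooth muscle list averaged 8.64 to 8.74 in Ppif-/- and 8.91 to 9.11 in WT hearts, and 1 of 5 lay above 0. That gene, Smtn (0.25 ± 0.10, limma adjusted p = 0.331), did not pass and was named after its value was seen. Cardiomyocyte markers gave 0 calls, with Ryr2 at -0.19 and Myl2 at 0.07, and of 2 measured erythroid markers Alas2 stood at 0.38 and Slc4a1 at 0.01. The part of cell make-up in the class I values was not tested.

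The Sv129 ancestry of the Ppif-/- line was the reason to look at the neighbours of the class I genes. Genes of the lists above were left out of the neighbours, so class II genes beside Tap2 and the heavy chain genes H2-Q2, H2-Q4, H2-Q5 and H2-Q10 beside H2-D1 were passed over. Of these, H2-Q5 (0.80, given above) and H2-Q4 (0.71, limma adjusted p = 0.177, named after its value was seen) had larger differences than any neighbour counted beside H2-D1. Neighbours were read by probe sets of 1 symbol. The probe set annotated to both H2-Q6 and H2-Q8 (1.54 ± 0.23, limma adjusted p = 0.0246) could therefore not be counted. Of the 100 nearest measured genes that remained, 10 on each side of 5 chromosomal positions, 2 rose and 0 fell in limma, beside 0.624% and 0.461% of all probe sets. Of the 100, 50 lay above 0 and 50 below, and the median was -0.0099. Around the cluster that holds Tapbp, H2-K1, Psmb9, Tap1, Psmb8 and Tap2, 0 of 20 passed and 0 had an unadjusted p under 0.05, and the differences ran from -0.17 to 0.19. Around Nlrc5, 0 of 20 passed and 13 lay below 0, with 1 at an unadjusted p under 0.05. The 2 that rose, named after their values were seen, were Wdr76 near B2m (0.76 ± 0.13, adjusted p = 0.046) and Cdsn, the corneodesmosin gene, near H2-D1 (0.63 ± 0.11, adjusted p = 0.0413). Leaving out any 1 heart ended the call of Wdr76 (0.0507 to 0.149), and leaving out any but Ppif-/- heart 1 ended that of Cdsn (0.0984 to 0.156).

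Of 19930 genes ranked by how near their centred values over the 6 hearts lay to those of B2m, the closest were Tpm2, Ankrd1, Rad51b, Gbp9 and Cks2. Their root mean square differences from B2m were 0.0622, 0.0642, 0.0665, 0.0696 and 0.0699 on the log2 scale. Gbp9, a GTPase induced by interferon, was the 1 of these 5 from the lists above, at 8.90, 8.69 and 8.63 in Ppif-/- hearts and 8.21, 8.58 and 8.27 in WT hearts. For Gbp9, Ppif-/- heart 1 and WT heart 2 were the highest of their genotype, a likeness to B2m that the ranking itself selects. Of the 5, only Ankrd1 passed in limma (0.54 ± 0.08, adjusted p = 0.0299). Its adjusted p ranged from 0.0034 to 0.123 over the alternatives. The ranking describes 6 hearts and carries no test.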

How the data were processed

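Total RNA of 6 hearts was measured on Affymetrix Gene 1.0 ST arrays. Each deposited value is the log2 signal of a probe set, made by the authors with RMA, per the submitters' processing notes. No software version or genome build was stated, and neither detection calls nor batches were given. RMA shrinks differences of dim probe sets. Of 35557 probe sets, 21789 carried 1 symbol, 1621 several and 12147 none in the platform annotation; symbols were updated by Entrez identifier (21698 matched). The 23410 with a symbol were tested with limma 3.58.1 in R 4.3.3 (lmFit, eBayes, 2-sided, no covariates, Benjamini-Hochberg, threshold 0.05), and the procedure was tested on simulated data. For lists, a gene's probe set of highest mean stood for it; listed genes without a probe set of 1 symbol were not analysed here. Named are all class I probe sets, Ppif, up to 4 called genes per list or else the 2 with the smallest p, the constitutive partners, and the 5 genes nearest to B2m. The genes and lists were chosen with earlier results of these data known. The alternatives are a replicate block, other filters and normalisations, other variance models, array weights, and leaving out each heart.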

Additional observations from a re-analysis of the deposited data

How the results depend on the processing

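With 3 hearts of each genotype, the number of arrays limits every value. The 254 calls over all probe sets became 160 with the replicate block, 402 on probe sets with a mean of 6 or more, 131 over all probe sets of the array, 453 with a variance trend, 386 with array weights and 131 to 171 without 1 heart. The 1 class I call became 0 with the replicate block, over all probe sets and with 1 probe set per gene (which leaves out 18 of the Nlrc5 probe sets), 2 with the mean filter, the variance trend and array weights, where B2m joined it, and 0 or 1 without 1 heart, where Ppif-/- heart 3 ended it. No pairing by replicate number was seen: deviations of same-numbered hearts correlated at -0.08, -0.06 and 0.12, and 1 of 3 correlated best with its own number. With 3 hearts of each genotype, this cannot show that pairing was absent. Ppif kept its call throughout (-5.27 to -5.05). The 3 calls in pathway lists were 2 to 3 without 1 heart. The 3 calls among cell type markers became 0 without any 1 heart (0 to 0), and the 2 among neighbours became 1 with quantile normalisation and 0 to 1 without 1 heart; the alternatives for markers and neighbours were chosen after seeing the data. Signs turned for values near 0. Tap2 stood at 0.0016 with quantile normalisation, at 0.027 with array weights and at -0.062 to 0.056 without 1 heart. Psmb6 stood at -0.015 with centred arrays, at -0.0048 with array weights and at -0.033 to 0.022 without 1 heart. Slc4a1 stood at -0.0032 with quantile normalisation, at -0.0041 with centred arrays and at -0.020 to 0.046 without 1 heart. Without 1 heart, Psmb10 ran from -0.00093 to 0.21, Psmb7 from -0.030 to 0.011, Nlrc5 probe sets 10574133 from -0.13 to 0.062 and 10574145 from -0.12 to 0.23, and Psmb8 minus Psmb5 from -0.10 to 0.18. The cause of these changes was not tested.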

Other observations

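Beside the pair that names H2-K1 and H2-D1, 4 further probe sets are each annotated to several class I genes. Each names genes of either the H2-Q or the H2-T family and can be assigned to no single gene. Of these 4, 1 rose, the probe set annotated to H2-Q6 and H2-Q8. It stood at 10.41, 9.67 and 9.79 in Ppif-/- hearts and at 8.22, 8.83 and 8.20 in WT hearts, with no overlap, a 2.92-fold higher level (1.54 ± 0.23, limma adjusted p = 0.0246). Among WT hearts, heart 2 was the highest here as well. The call ended when Ppif-/- heart 3 (adjusted p = 0.0855), WT heart 1 (0.0971) or WT heart 3 (0.0884) was left out, over all probe sets of the array (0.101) and with the replicate block (0.0668). The other 3, all annotated to H2-T genes, differed by 0.12, -0.05 and -0.0098 and did not pass. Over all 6 probe sets shared by several class I genes, 4 lay above 0 and the median was 0.21. Which transcripts contribute to each was not resolved.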
